A study of Mus musculus with 6 samples.

Results

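The genes described here encode the subunits, regulators and assembly factors of the proteasome. They were all gene names on the array made of Psm, a letter from a to g and a number, without Psmb8 and Psmb9, and a gene with several probes was represented by the probe with the highest mean signal over the arrays. This gave 46 of 34788 gene names: 17 of the catalytic core particle, 22 of the regulatory particles and 7 assembly chaperones. Expression was measured on 6 Agilent 1-colour arrays of olfactory bulb, hippocampus or cortex from male mice of the inbred strain BALB/c that were 8 weeks old. The mice had received saline or PAMAM dendrimers, branched polyamidoamine polymers used as carriers of drugs and nucleic acids, as a single dose into the nose at 0.15 mg/kg, and tissue was taken after 24 h. Each of the 6 groups (olfactory bulb, hippocampus and cortex, each with saline and with PAMAM) has 1 array, and its RNA was pooled from 6 independent experiments, so the spread between mice was not measured. Whether one mouse gave all 3 regions is not stated, and regions are not replicate animals.

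The proteasome is the protease of the cytosol and nucleus that degrades proteins tagged with ubiquitin. Its core particle (20S) is a barrel of alpha and beta rings with the active sites inside, and its regulatory particle (19S) binds ubiquitin chains, unfolds the substrate with a ring of ATPases and feeds it into the barrel. Cells that lose proteasome activity raise most of the subunit genes together through the transcription factor NRF1 (Nfe2l1), and immune signals replace the active-site subunits by immune variants. In neurons, proteasomes also take part in the turnover of synaptic proteins.

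Of the 46 genes, 44 were well above background on every array and entered the tests across all 20979 such genes, and 38 were also brighter than the median detected gene on every array. The other two were Psma8, the testis form of an alpha subunit, and Psmb11, the active-site subunit of thymic epithelium. Psma8 was well above background on no array, with readings between -7.29 and -6.44. Psmb11 was well above background on both olfactory bulb arrays only, where its level was at least 1.79-fold that of the hippocampus and at least 1.44-fold that of the cortex. These bounds set the mean of the bulb arrays against the lowest signal well above background on the other arrays, and its readings were -4.03 and -3.91 (bulb), -5.83 and -6.67 (hippocampus) and -6.59 and -5.75 (cortex). The measured means were -3.97 (bulb), -6.25 (hippocampus) and -6.17 (cortex).

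Promoters of 38 of the 46 genes were found by symbol in RefSeq (GRCm38.p6), each as 250 bases before and 50 after the start. Of these, 4 are shown for the region results described further on: Psmb5, Psmc1 and Psmd12, which were lower in the olfactory bulb by the main scaling, and Psme4, which was higher there. Both calls of Psmd12 ended after quantile normalization. The 250 bases before each start are written 5′ to 3′ on the strand of the gene, from chr14:54617996-54618245 (minus strand) for Psmb5, chr12:100109952-100110201 (plus) for Psmc1, chr11:107479278-107479527 (plus) for Psmd12 and chr11:30771525-30771774 (plus) for Psme4. Capitals mark CCGGAAG, the site of GABP and other ETS factors, or TGACNNNGC, the antioxidant response element that NRF1 and NRF2 bind, on either strand.
Psmb5: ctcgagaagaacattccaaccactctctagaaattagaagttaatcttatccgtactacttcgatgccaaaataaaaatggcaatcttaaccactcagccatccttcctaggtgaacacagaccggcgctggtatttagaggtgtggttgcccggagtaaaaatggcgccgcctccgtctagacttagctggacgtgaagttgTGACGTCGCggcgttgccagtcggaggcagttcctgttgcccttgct
Psmc1: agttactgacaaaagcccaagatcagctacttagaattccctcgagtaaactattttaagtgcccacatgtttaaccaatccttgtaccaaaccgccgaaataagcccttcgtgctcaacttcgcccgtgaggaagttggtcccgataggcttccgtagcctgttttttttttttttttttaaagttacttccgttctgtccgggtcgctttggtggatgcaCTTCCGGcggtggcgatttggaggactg
Psmd12: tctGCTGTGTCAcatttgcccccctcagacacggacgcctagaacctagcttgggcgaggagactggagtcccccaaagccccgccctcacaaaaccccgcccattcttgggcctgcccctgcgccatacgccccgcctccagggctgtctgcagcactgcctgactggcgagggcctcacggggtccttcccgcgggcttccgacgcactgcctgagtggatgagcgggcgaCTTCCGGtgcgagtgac
Psme4: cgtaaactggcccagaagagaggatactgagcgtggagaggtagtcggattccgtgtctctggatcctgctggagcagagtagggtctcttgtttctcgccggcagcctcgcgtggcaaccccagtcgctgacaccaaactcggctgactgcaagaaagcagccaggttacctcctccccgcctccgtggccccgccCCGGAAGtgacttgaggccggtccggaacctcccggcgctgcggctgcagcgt
With the base before the start as -1, the capitals in Psmb5 are an antioxidant response element whose first base is at -47. Psmc1 has an ETS match at -28, and Psme4 one at -53 that overlaps a match to GGGCGG, the Sp1 site, at -58. Psmd12 has an ETS match at -17 and an antioxidant response element at -247. Psmc1, Psmd12 and Psme4 thus share the ETS match, and its relation to the region comparison was not tested.

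Over the whole window, CCGGAAG was present in 13 of the 38 proteasome promoters (34.2%), against 9.12% of 27025 promoters in all and 15.7% of the 10455 whose genes entered the tests. Its carriers were subunits of the 19S particle (Psmc1, Psmc2, Psmc6, Psmd2, Psmd4, Psmd6, Psmd11, Psmd12 and Psmd13), the activators Psme3 and Psme4 and the chaperones Psmg1 and Psmg3. The antioxidant response element was in 6 (15.8%, against 12.5% of all and 14.5% of tested): Psmb5, Psmb6, Psmc6, Psmd12, Psmd9 and Psme4 (in Psme4 past the bases shown). CCAAT, the NF-Y site, was in 34.2% against 37.9% and 38.2%, and GGGCGG was in 57.9% against 35.9% and 61.2%. The heat shock element GAANNTTC was in Psmb5 and Psmf1 (5.26% against 7.95% and 5.85%), and TATAAA was in 7.89% against 14.2% and 7.79%. Median GC content was 57.3% in the proteasome promoters, 52.7% in all and 60.3% in the tested genes. A match is a description of letters in this window and not a bound site.

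Values below are log2 of the processed signal relative to the array's 75th percentile, which lay between 452 and 710, and every difference is on that log2 scale. No spot was saturated. The SD of a difference between 2 arrays from repeated spots of one probe ran from 0.0760 in the hippocampus through 0.0761 in the bulb to 0.0766 in the cortex. It covers spot noise only, and came from probes brighter than the median detected probe on both arrays. The spot noise of dimmer probes is not given here. Summed levels of neuron markers fitted the labelled regions. For 18 olfactory bulb neuron markers the sum, in units of the 75th percentile, was 245 and 240 in the bulb and between 17.9 and 20.4 elsewhere. For 15 hippocampal markers it was 90.3 and 77.3 in the hippocampus and at most 38.7 elsewhere, and for 14 cortical markers 128 and 125 in the cortex and at most 85.1 elsewhere. Single markers went the other way. Of those well above background on all 6 arrays, 2 of 16 bulb markers were lower in the bulb than in the hippocampus. Likewise 1 of 7 hippocampal markers was higher in the bulb than in the hippocampus, and 3 of 12 cortical markers were higher in the hippocampus than in the cortex. All 6 arrays lie on 1 slide. Both bulb arrays and the hippocampus saline array lie in one row of the slide, and both cortex arrays and the hippocampus PAMAM array in the other. Row and treatment therefore cannot be told apart in the hippocampus, nor row and region between bulb and cortex arrays alone.

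Transcripts of the proteasome differed little between PAMAM and saline. The median difference, PAMAM minus saline, was 0.01 in the bulb (45 genes measured on both arrays), -0.02 in the hippocampus (44 genes) and 0.05 in the cortex (44 genes). Over all measured genes it was -0.01, 0.00 and 0.02, and for genes brighter than the median on every array it was 0.05 in the cortex too. After quantile normalization the medians of the proteasome genes were -0.0046, -0.01 and -0.01, so the sign turned in the bulb and cortex. The genes above 0 were 24, 16 and 28 of these, against 47.2%, 51.2% and 53.5% of all measured genes, and 22, 15 and 20 after quantile normalization. The differences spanned -0.16 to 0.19 in the bulb, -0.21 to 0.15 in the hippocampus and -0.40 to 0.30 in the cortex, so none reached 2-fold (0.259%, 0.653% and 0.768% of all genes did). No proteasome gene differed by 0.25 or more in the bulb (6.47% of all measured genes were higher and 8.89% lower by that much) or in the hippocampus (10.6% higher and 7.37% lower). Such differences were rarer among the 10394 genes brighter than the median on every array. Of these, 181 were higher and 173 lower by that much in the bulb, and 297 higher and 166 lower in the hippocampus. In the cortex 1 was higher by 0.25 or more (11.3% of all genes) and 2 were lower (14.5%). With 1 array per group these differences have no replicate check and no p-value.

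**Figure D1:**
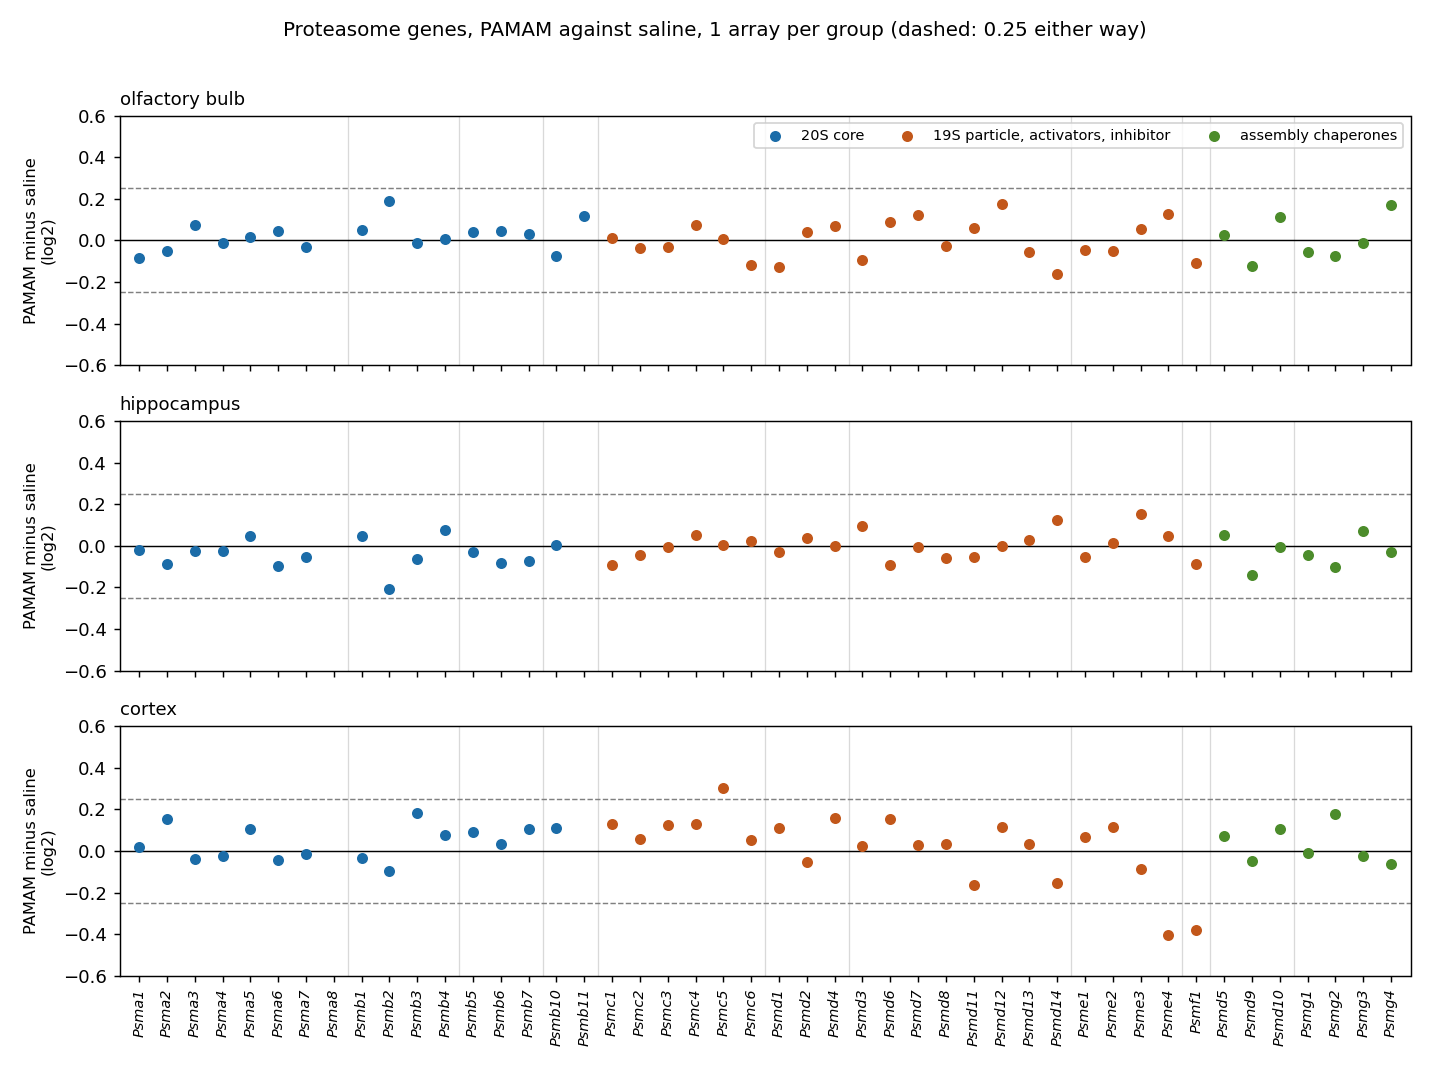
Difference between PAMAM and saline (log2, vertical axis) for each proteasome gene, grouped by role along the horizontal axis, in the 3 regions, 1 array per group. Dashed lines mark 0.25 either way. In the olfactory bulb and hippocampus every point lies between them, and in the cortex Psmc5 (0.30, or 0.19 after quantile normalization) lies above and Psme4 (-0.40) and Psmf1 (-0.38) lie below.

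The constitutive active sites sit in Psmb6 (caspase-like), Psmb7 (trypsin-like) and Psmb5 (chymotrypsin-like). Psmb5 read 5.86 after saline and 5.91 after PAMAM in the bulb, then 6.47 and 6.45 (hippocampus) and 6.32 and 6.41 (cortex). Psmb6 read 5.37 and 5.42, 5.54 and 5.46, and 5.51 and 5.55 in the same order. Psmb7 read 2.83 and 2.86, 3.15 and 3.07, and 2.97 and 3.08. All 3 were slightly higher after PAMAM in the bulb and cortex and slightly lower in the hippocampus, except that Psmb5 (-0.03) and Psmb6 (-0.06) were lower in the cortex after quantile normalization, and the largest of these 9 differences was 0.10. The structural beta subunits held the widest differences of the core. Psmb2 read -0.04 and 0.15 (bulb), 0.41 and 0.21 (hippocampus) and -0.01 and -0.11 (cortex), so it was higher in the bulb and lower in the other two. Psmb3 read 4.49 and 4.47, 4.82 and 4.75, and 4.73 and 4.91, and was higher in the cortex only. The 7 measured alpha subunits, which form the gated outer ring, differed by -0.10 to 0.15 across the 3 regions.

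The gene higher by 0.25 or more was Psmc5, an ATPase of the 19S base. It read 3.78 and 3.79 (bulb), 4.31 and 4.31 (hippocampus) and 4.34 and 4.65 (cortex), so only the cortex pair was apart, and the difference was 0.19 there after quantile normalization. All 6 ATPase genes were higher after PAMAM in the cortex (0.05 to 0.30; 5 after quantile normalization, from -0.02 to 0.19), 3 of 6 in the bulb and 3 of 6 in the hippocampus. Among the lid subunits, Psmd14, which removes ubiquitin from the substrate, read 0.99 and 0.83 (bulb), 1.30 and 1.43 (hippocampus) and 1.28 and 1.12 (cortex), lower in the bulb and cortex and higher in the hippocampus. Psmd12 read 3.55 and 3.73, 3.96 and 3.96, and 4.02 and 4.13, and Psmd11 read 1.53 and 1.59, 1.73 and 1.67, and 1.77 and 1.61. The scaffold subunit Psmd1 read 4.12 and 3.99, 4.43 and 4.40, and 4.42 and 4.53, and the lid subunit Psmd3 read 4.84 and 4.75, 5.12 and 5.21, and 5.34 and 5.37. Of the 17 genes of the 19S particle, Psmc4 and Psmc5 were the ones with the same sign in all 3 regions, both higher after PAMAM. After quantile normalization both kept it, and Psmc2 and Psmd8 were lower in all 3.

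The genes lower by 0.25 or more were the activator Psme4, which opens the core in the nucleus, and Psmf1, which inhibits the core in the test tube. Psme4 read 0.25 and 0.37 (bulb), -0.30 and -0.26 (hippocampus) and -0.18 and -0.58 (cortex). Its second probe differed by 0.01 in the cortex and -0.57 in the hippocampus, so the 2 probes placed the low reading in different regions, and the median of both gave -0.20 in the cortex. Psmf1, with 1 probe, read -0.65 and -0.76, -0.69 and -0.78, and -0.34 and -0.72. It was lower after PAMAM in all 3 regions, and the cortex saline array stood above the other 5. The normexp background correction gave -0.27 in the cortex. The other activators showed no such shift: Psme1 read 2.40 and 2.35, 2.53 and 2.47, and 2.22 and 2.29, Psme2 read 3.62 and 3.57, 3.36 and 3.37, and 3.30 and 3.42, and the nuclear Psme3 read 0.71 and 0.76, 0.52 and 0.67, and 0.70 and 0.61. Psme4 and Psmf1 were not among the genes brighter than the median, and among brighter genes none of 38 proteasome genes was lower by 0.25 in the cortex (4.81% of brighter genes) and 1 was higher (8.17%).

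Markers of neighbouring tissue also differed in these pairs. The summed level of 19 choroid plexus markers went from 32.9 after saline to 56.7 after PAMAM in the cortex and from 237 to 380 in the hippocampus, with 12 of 13 and 19 of 19 measured markers higher, and was 18.8 and 18.8 in the bulb. For 19 meningeal and fibroblast markers it went from 19.9 to 32.9 in the cortex, with 18 of 19 higher, and for 9 red blood cell markers from 142 to 220, with 5 of 5 measured higher, beside 141 to 191 in the hippocampus, with 6 of 6 higher. Of the hippocampal neuron markers 10 of 11 measured were higher in the cortex pair (median 0.23) and 11 of 13 lower in the hippocampus pair (median -0.19), and of the cortical neuron markers 10 of 14 were lower in the cortex pair (median -0.08). None of the choroid plexus or meningeal markers was at 0, but 6 choroid plexus markers were not well above background on the cortex saline array, against 1 on the PAMAM array. The part of these markers in the cortex values of Psmc5, Psme4 and Psmf1 was not tested. In pooled tissue, fewer cells of a type and less RNA per cell cannot be told apart.

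Assembly chaperones hold partly built particles. Those of the 19S base were Psmd5, which read 0.65 and 0.68, 1.02 and 1.07, and 0.80 and 0.87, Psmd9, which read -0.42 and -0.54, -0.27 and -0.41, and -0.41 and -0.46, and Psmd10, which read -0.28 and -0.17, -0.20 and -0.20, and -0.27 and -0.16. Psmd5 was higher and Psmd9 lower after PAMAM in every region, each by at most 0.14, while the median of the Psmd9 probes gave 0.04 in the bulb and 0.07 in the cortex. Those of the alpha ring were Psmg1 (2.63 and 2.58, 2.66 and 2.62, 2.71 and 2.70), Psmg2 (-0.20 and -0.28, -0.27 and -0.37, -0.31 and -0.13), Psmg3 (1.13 and 1.11, 1.22 and 1.29, 1.39 and 1.36) and Psmg4 (0.41 and 0.58, 0.27 and 0.24, 0.28 and 0.22). Psmg2 in the cortex (0.18) and Psmg4 in the bulb (0.17) were the widest of these 12 differences.

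Across regions, 5 of 44 genes were higher in all 3 (Psma5, Psmb4, Psmc4, Psmc5 and Psmd5) and 5 were lower in all 3 (Psma4, Psma7, Psmf1, Psmd9 and Psmg1), against 15.3% and 14.2% of all tested genes. Quantile normalization gave 4 higher (without Psmb4) and 8 lower (with Psma1, Psmc2 and Psmd8 added). The second probe of Psma4 gave 0.09 (bulb), 0.02 (hippocampus) and -0.04 (cortex). The differences of 40, 42 and 34 genes in the bulb, hippocampus and cortex lay within 2 SD of spot noise from 0. That SD came from brighter probes and was applied to dim genes too. Among all tested genes these shares were 72.4%, 67.6% and 54.8%, and among brighter genes 86%, 84.4% and 67.6%. The mean over the 3 regions, tested with limma with region as a term, passed Benjamini-Hochberg adjustment for 0 of 44 proteasome genes and 0 of 20979 genes (0%). At an unadjusted p below 0.05 it was 0 of 44 and 1492 of 20979. Psmf1 came nearest, with a mean of -0.19 ± 0.08 (SE), lower in 3 of 3 regions and an adjusted p of 0.71. This fit has 2 residual degrees of freedom, and its error is the disagreement between regions.

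Heat shock chaperones read higher after PAMAM in the same pairs. Of 20 measured, 19 (bulb), 20 (hippocampus) and 17 (cortex) were higher, with medians of 0.13, 0.23 and 0.25 (0.13, 0.23 and 0.16 after quantile normalization). Those higher by 0.25 or more were 5, 10 and 10, against 6.47%, 10.6% and 11.3% of all genes. Those lower by as much were 0, 0 and 1 (8.89%, 7.37% and 14.5%), the last being Dnajb4 at -0.31 in the cortex. Hspb1, a small heat shock protein, was higher by 0.41, 0.90 and 1.14, and Hspa1a, the inducible HSP70, by 0.32, 0.35 and 0.41. The 46 measured partners of the proteasome (ubiquitin genes, enzymes that attach ubiquitin, shuttle factors, proteasome-bound factors and the transcription factors of the subunit genes) had medians of 0.02, 0.00 and 0.04. Of them 2, 1 and 0 were higher by 0.25 (6.47%, 10.6% and 11.3% of all genes) and 1, 1 and 6 lower (8.89%, 7.37% and 14.5%). Among the extremes were the conjugating enzyme Ube2d1 in the bulb (0.46, or 0.19 with normexp), the activating enzyme Uba6 in the hippocampus (0.35, or 0.19 as the median of its probes) and AI314180, an adaptor of the proteasome, in the cortex (-0.52). Nfe2l1 was higher by 0.10 and 0.16 in the bulb and hippocampus and lower in the cortex, at -0.28. Of the immune genes that the selection left out, Psmb8 differed by -0.15, -0.07 and 0.20 and Psmb9 by -0.07, 0.03 and -0.10. The median of all Psmb9 probes gave -0.28, 0.27 and -0.10.

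Differences between regions were wider than those with treatment, and their direction for most subunits depended on how the arrays were scaled. By 75th-percentile scaling, both olfactory bulb arrays lay below the other 4 for 31 of 44 proteasome genes (36.7% of all tested genes did so), above them for 4 (Psme2, Psme3, Psme4 and Psmg4; 24.4% of all genes) and in neither position for 9. With limma and treatment as a term, 16 of 44 were lower in the bulb than in the hippocampus at an adjusted p below 0.05 (25.5% of all genes) and 1 was higher (18.8%), 17 in all against 44.3% of all genes. Against the cortex 17 were lower (29.1%) and 1 was higher (18%), 18 in all against 47.1%. The hippocampus and cortex differed in 1 (11.1% of all genes), which was lower in the hippocampus (6.39% lower and 4.72% higher among all genes, and 6.21% lower among brighter genes). Among brighter genes, 31.9% were called lower in the bulb than in the hippocampus and 38.7% lower than in the cortex. The median difference of the 44 was -0.23 against the hippocampus and -0.19 against the cortex, beside -0.06 and -0.08 for all genes and -0.13 and -0.19 for brighter genes.

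After quantile normalization these medians were -0.06 and 0.015, so the direction against the cortex turned, and 5 genes were called lower in the bulb and 2 higher against the hippocampus (21.6% and 21.7% of all genes) and 3 and 3 against the cortex (22.8% and 21.9%). Between hippocampus and cortex the same 1 was called (5.98% lower and 4.76% higher among all genes). The median of the brighter genes went to 0.00 in both. Genes called in the same direction by both scalings were Psmb5, Psmb10, Psmc5, Psmd5 and Psmd14 (lower) and Psme4 (higher) against the hippocampus, and Psmb10, Psmc1 and Psmc5 (lower) and Psme4 (higher) against the cortex. Leaving out 1 array leaves 1 residual degree of freedom and 1 region with 1 array. The median difference then lay between -0.26 and -0.20 against the hippocampus and between -0.22 and -0.18 against the cortex. Between hippocampus and cortex it lay between -0.05 and 0.01. The share of all genes called in these fits is not given here. A call that ended without 1 array therefore cannot be read as particular to that gene. With slide row as a further term, which leaves 1 residual degree of freedom, the medians were -0.26 and -0.23. At an adjusted p below 0.05 limma called 1 gene against the hippocampus (Psmb5, with 23.1% of all genes called). It called 0 against the cortex (6.48% of all genes) and 0 between hippocampus and cortex (1.29%). At an unadjusted p below 0.05 there were 5 against the cortex and 1 between hippocampus and cortex. The share of all genes at that unadjusted threshold is not given here. No bulb against cortex call described further on held with the row in the fit, those of genes outside the selection included, and against the hippocampus those of Psmb5, Psmb8, Psmb9 and Usp14 did.

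**Figure D2:**
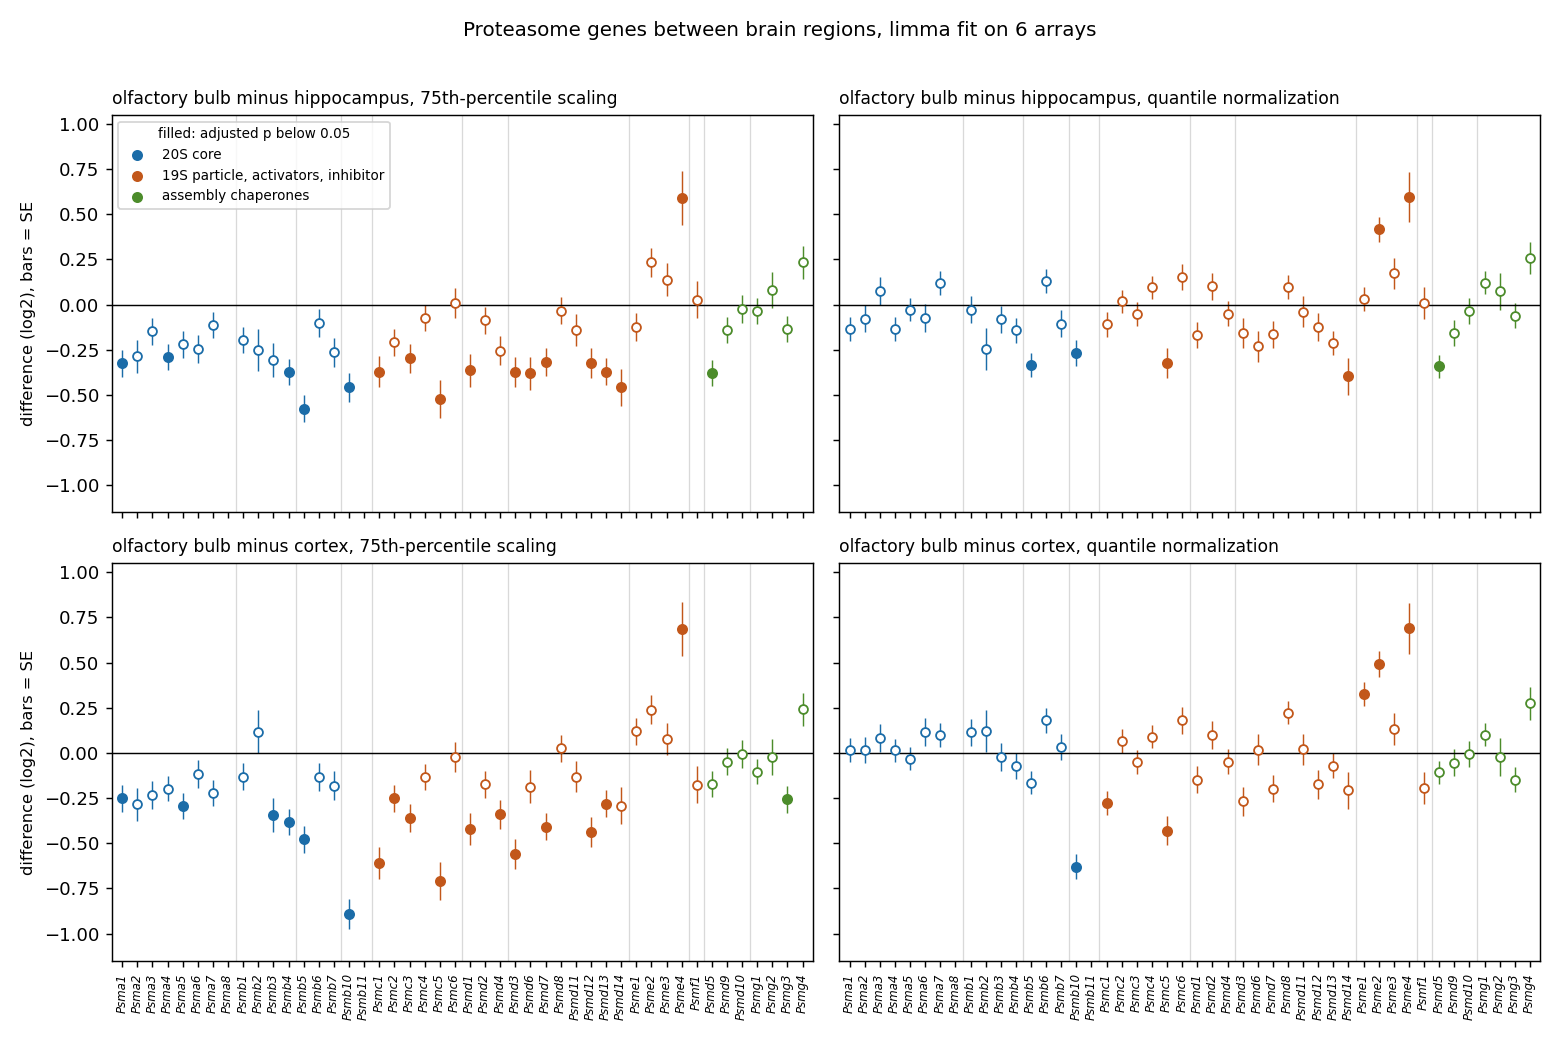
Difference of the bulb from the hippocampus (top) and from the cortex (bottom; log2, vertical axis, bars = SE) for each tested proteasome gene, grouped by role, from limma on 6 arrays; filled points have an adjusted p below 0.05. By 75th-percentile scaling (left) most points lie below 0 and 17 and 18 are called, and after quantile normalization (right) they centre on -0.06 and 0.015 with 7 and 6 called.

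**Figure D3:**
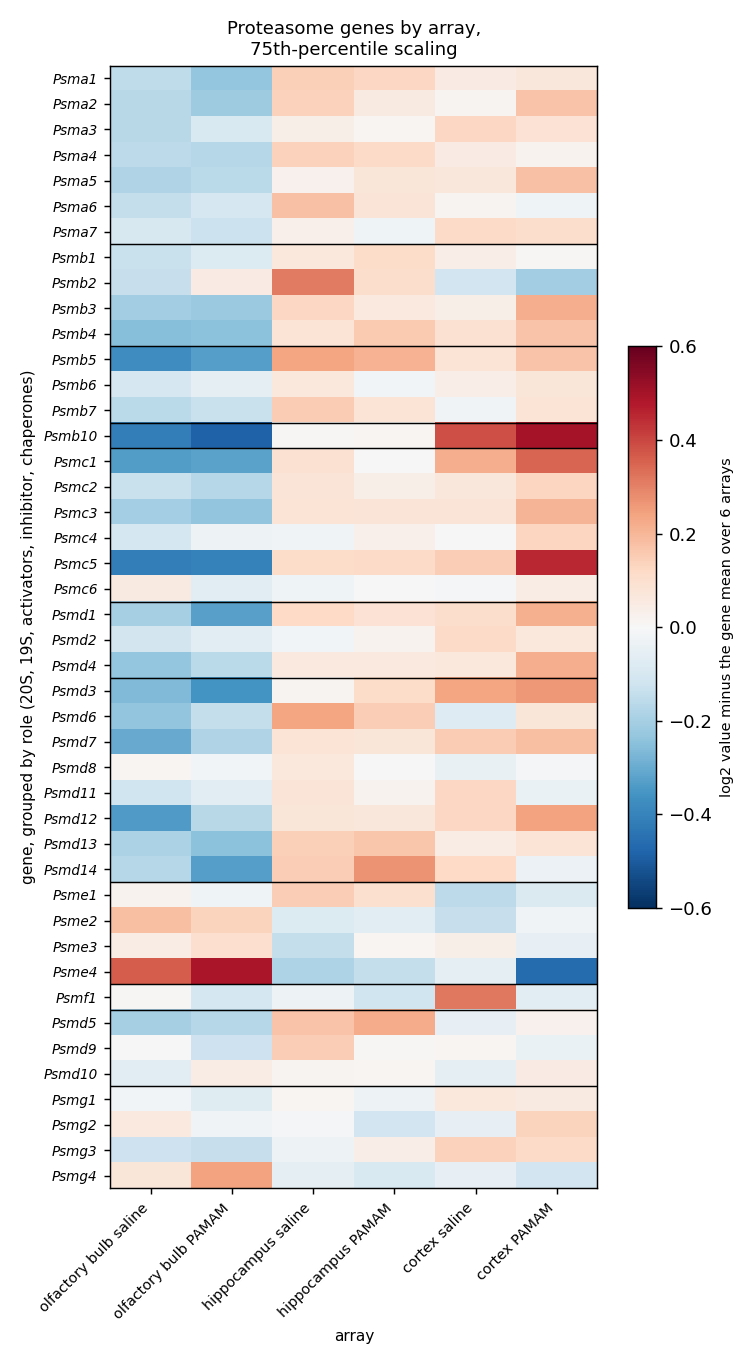
Log2 value of each of the 44 tested proteasome genes (rows, grouped by role) on each of the 6 arrays (columns) minus the mean of the gene over the arrays, by 75th-percentile scaling. The 2 olfactory bulb columns are lowest for 31 genes and highest for Psme2, Psme3, Psme4 and Psmg4, a pattern that quantile normalization reduces to a median of -0.06 against the hippocampus and turns to 0.015 against the cortex.

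Differences below are the bulb minus the other region, against the hippocampus first and the cortex second, unless stated. In the core particle, Psmb5 gave the lowest differences of the constitutive genes. Both its bulb arrays lay below the other 4, and its second probe gave -0.58 and -0.37. The fitted difference was -0.58 ± 0.08 (SE, adjusted p = 0.005, limma) against the hippocampus, a call that held under every alternative run, and -0.48 against the cortex (adjusted p = 0.008). Quantile normalization gave -0.34 and -0.16, the second not called (adjusted p = 0.11), and that call also ended without either bulb array (0.07). The probe lies at chr14:55232957-55233016 (mm9, minus strand). Psmb6 (-0.10 and -0.13) and Psmb7 (-0.26 and -0.18) passed in neither contrast, though Psmb7 passed against the hippocampus with normexp (adjusted p = 0.03). All 14 tested constitutive core genes were below 0 against the hippocampus and 13 against the cortex, with 4 and 5 called, but 11 and 4 were below 0 after quantile normalization, with 1 and 0 called. Among all tested genes 55.9% and 57.6% were below 0 (50.1% and 51% after quantile normalization), and among brighter genes 65.2% and 68.8%, with 31.9% and 38.7% called lower.

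Psmb10, the immune variant that takes the place of Psmb7, had the widest regional spread of the well-detected genes. It read 3.57 and 3.49 (bulb), 3.99 and 3.99 (hippocampus) and 4.37 and 4.48 (cortex), 3 levels with no overlap. Psmb10 was lower in the bulb than in the cortex at -0.89 ± 0.08 (SE, adjusted p = 0.002, limma; 1.86-fold) and than in the hippocampus at -0.46 (adjusted p = 0.012), and lower in the hippocampus than in the cortex at -0.43 (adjusted p = 0.041). All 3 were called after quantile normalization too. The bulb against cortex call held under every other alternative run and ended with the row term (adjusted p = 0.08). The bulb against hippocampus call ended without any 1 of those 4 arrays (adjusted p 0.06 to 0.10). The hippocampus against cortex call ended when any 1 array was left out (0.07 to 0.22), with the median of all probes per gene (0.07) and with genes well above background on at least 2 arrays (0.07). The probe lies at chr8:108459677-108459736 (mm9, minus strand), and Psmb10 has no second probe.

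The immune subunits left out of the selection stood the other way round. Psmb8, which takes the place of Psmb5, read -1.38 and -1.53 (bulb), -2.31 and -2.38 (hippocampus) and -2.63 and -2.43 (cortex). It was higher in the bulb by 0.89 against the hippocampus and 1.08 against the cortex (limma adjusted p = 0.004 and 0.002). Psmb9, which takes the place of Psmb6, read -1.51 and -1.59, -2.02 and -1.99, and -2.20 and -2.31, higher in the bulb by 0.46 and 0.71 (limma adjusted p = 0.010 and 0.003). Tap2, which carries the peptides made by proteasomes into the endoplasmic reticulum, was higher by 0.70 and 0.84. These 3 were called higher by both scalings, while Psmb10 was called lower by both. The Psmb9 calls ended with the median of its probes (0.09 and 0.07, adjusted p = 0.68 and 0.76), and against the hippocampus that of Psmb9 ended without the bulb saline, bulb PAMAM or hippocampus saline array (adjusted p 0.07 to 0.08) and that of Tap2 without the bulb saline or hippocampus PAMAM array (0.07).

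**Figure D4:**
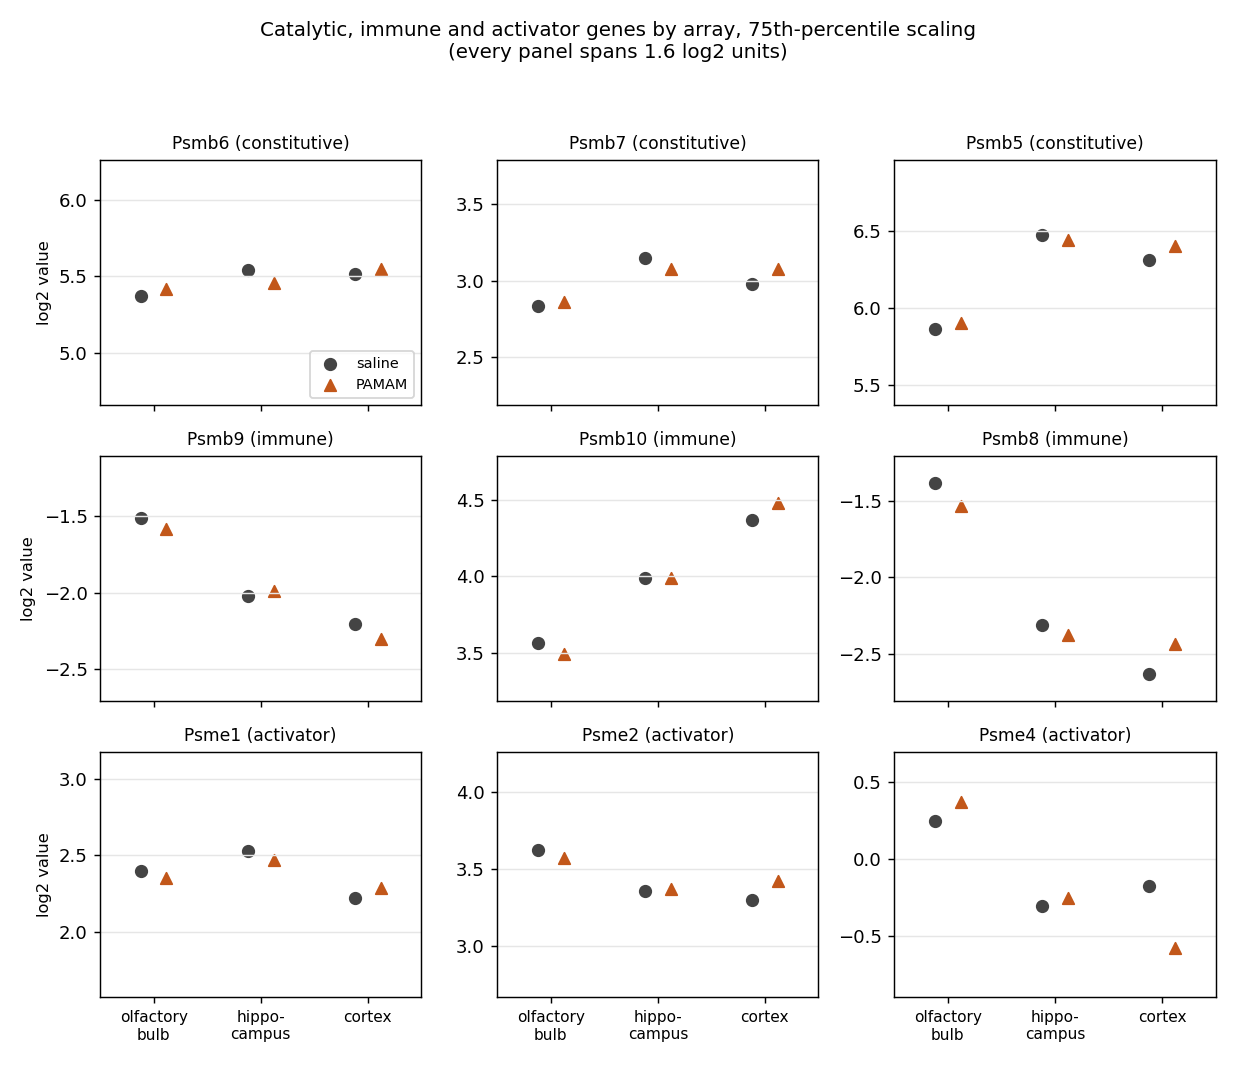
Log2 value by array (vertical axis, 75th-percentile scaling, each panel spanning 1.6 units) of constitutive catalytic, immune and activator genes in the 3 regions, with saline as circles and PAMAM as triangles. Psmb10 is lowest in the bulb (3.57 and 3.49) and highest in the cortex (4.37 and 4.48), Psmb8 and Psmb9 are highest in the bulb, and Psme4 is highest in the bulb.

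In the regulatory particle, Psmc5 read lower in the bulb at -0.52 ± 0.11 (SE, adjusted p = 0.018, limma) against the hippocampus and -0.71 against the cortex (adjusted p = 0.007), and quantile normalization left -0.32 and -0.43, both called. The first call ended without any 1 of the bulb and hippocampus arrays (adjusted p 0.06 to 0.12) and the second without the bulb PAMAM array (0.06). Psmc1, another ATPase, read 5.48 and 5.49 (bulb), 5.91 and 5.81 (hippocampus) and 6.03 and 6.16 (cortex). Its bulb arrays lay below the other 4, at -0.37 and -0.61 in the fit (limma adjusted p = 0.026 and 0.006), and its second probe gave -0.43 and -0.54. Quantile normalization gave -0.11 (adjusted p = 0.26) and -0.28 (0.033). The call against the hippocampus also ended without any 1 of the bulb and hippocampus arrays (adjusted p 0.07 to 0.17), and the call against the cortex ended without the bulb PAMAM array (0.05). Psmc1 and Psmc5 thus stood apart from Psmc6, which read 2.41 and 2.29, 2.34 and 2.36, and 2.35 and 2.40, with all 3 regions overlapping. The lid subunit Psmd12 was lower in the bulb at -0.32 and -0.44 (limma adjusted p = 0.032 and 0.013). Its second probe gave -0.31 and -0.32. Quantile normalization gave -0.12 and -0.17, neither called (limma adjusted p = 0.26 and 0.14). Of the 17 tested 19S genes, 16 were below 0 against the hippocampus and 16 against the cortex, with 10 called in each, and after quantile normalization 12 and 10 were below 0 with 2 called in each, beside the same shares of all and brighter genes (25.5% and 29.1%, and 31.9% and 38.7%, called lower by the main scaling).

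Psmd14 was lower in the bulb than in the hippocampus at -0.46 (limma adjusted p = 0.023) and at -0.40 after quantile normalization. Of the assembly chaperones, Psmd5 was lower in the bulb than in the hippocampus at -0.38 (limma adjusted p = 0.014; -0.34 after quantile normalization), and Psmg3 was lower than in the cortex at -0.26 (adjusted p = 0.044), a call that ended after quantile normalization (0.15), when each gene was taken as the median of its probes (0.06, although Psmg3 has 1 probe), with genes well above background on at least 2 arrays (0.06) and without any 1 array (0.09 to 0.23). The call of Psmd14 ended without the bulb saline, bulb PAMAM or hippocampus PAMAM array (adjusted p 0.08 to 0.15) and that of Psmd5 without any 1 of the bulb and hippocampus arrays (0.09 to 0.11). The other 5 chaperones passed in neither contrast. The difference that ended furthest above 0 between hippocampus and cortex was that of Psmb2 (0.37 ± 0.12 SE, limma adjusted p = 0.13), followed by Psme1 (0.24) and Psmd5 (0.21), none of which passed.

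Of the 4 activators, Psme2, Psme3 and Psme4 were above 0 in both contrasts by both scalings. Psme4 was higher in the bulb by 0.59 ± 0.15 (SE, adjusted p = 0.032, limma) against the hippocampus and 0.69 (adjusted p = 0.020) against the cortex, 1.51-fold and 1.61-fold, and both bulb arrays lay above the other 4. Its second probe gave 0.92 and 1.12, and quantile normalization gave 0.60 and 0.69, both called. The call against the hippocampus ended when either bulb or either hippocampus array was left out (adjusted p 0.06 to 0.18) and when genes well above background on at least 2 arrays were tested (0.06), and the call against the cortex ended without the bulb PAMAM array (adjusted p = 0.12). The probe lies at chr11:30710953-30711012 (mm9, plus strand). Psme2 was above the other arrays in the bulb by 0.23 and 0.24 without passing (limma adjusted p = 0.073 and 0.066), and passed in both contrasts after quantile normalization (0.42 and 0.49) and normexp background correction (0.27 and 0.29). Its 2 other probes were also above 0 in both contrasts (at least 0.20 and 0.37). Psme1 (-0.12 and 0.12) passed in neither, but against the cortex it did after quantile normalization (0.33, adjusted p = 0.020). Psme3 (0.14 and 0.08) and Psmf1 (0.03 and -0.17) passed in neither.

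By 75th-percentile scaling, 42 of 44 genes had the same sign of the bulb against hippocampus difference within saline and within PAMAM. For bulb against cortex 40 did, and for hippocampus against cortex 30. The share of all genes that did so is not given here, and both treatments share this scaling. Between 75th-percentile scaling and quantile normalization, 35, 28 and 35 of 44 fitted differences kept their sign, in the same order. By 75th-percentile scaling too, the 12 other probes of these genes gave the same sign as the chosen probe in 11 cases for each bulb contrast. For hippocampus against cortex they did so in 10. For PAMAM minus saline they did so in 6 (bulb), 6 (hippocampus) and 7 (cortex) of 12 cases. The summed level of the 46 genes, in units of the 75th percentile, was 625 and 625 (bulb), 770 and 760 (hippocampus) and 771 and 817 (cortex).

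Among the 46 partners, limma by the main scaling called 11 lower and 1 higher in the bulb than in the hippocampus. Against the cortex it called 16 lower and 1 higher, and the medians were -0.19 and -0.18. Of all tested genes 25.5% and 29.1% were called lower and 18.8% and 18% higher. Of brighter genes 31.9% and 38.7% were called lower, with medians of -0.13 and -0.19. Counts of partners after quantile normalization are not given here. Usp14, a deubiquitinase bound to the 19S particle, gave the lowest difference, -0.76 and -0.84 (limma adjusted p = 0.002 and 0.001), and kept -0.58 in both contrasts after quantile normalization. Nfe2l1, the factor that raises subunit genes when proteasome activity is lost, was lower at -0.53 and -0.77 (limma adjusted p = 0.029 and 0.010). Nfe2l2, which encodes the related NRF2, was the one partner called higher, by 0.48 and 0.56 (limma adjusted p = 0.008 and 0.005). The shuttle protein Sqstm1 was lower at -0.58 in both (limma adjusted p = 0.021 and 0.020). Each of these calls was also made after quantile normalization, and those of Usp14 held under every alternative run except, against the cortex, the row term (adjusted p = 0.08). The Sqstm1 calls ended with the median of its probes (-0.13 and -0.02), and the calls of Sqstm1, Nfe2l1 and Nfe2l2 against the hippocampus ended without any 1 of the bulb and hippocampus arrays (adjusted p 0.06 to 0.16). Against the cortex they ended without either bulb array for Sqstm1 (0.08 and 0.12), without the bulb saline array for Nfe2l1 (0.07) and without the bulb PAMAM array for Nfe2l2 (0.05).

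Summed marker levels of cell types also differed between the regions, without a test. The summed level of 13 pan-neuronal genes was 473 and 467 (bulb), 674 and 665 (hippocampus) and 696 and 719 (cortex). For 15 oligodendrocyte markers it was 186 and 190, 277 and 304, and 344 and 325, and for 19 meningeal and fibroblast markers 69.1 and 64.9, 32.4 and 31.6, and 19.9 and 32.9. All of these markers were well above background on every array. For 16 microglia markers it was 238 and 248 (bulb), 248 and 250 (hippocampus) and 267 and 286 (cortex). Single microglia markers were tested with limma by the main scaling. Of 15 tested, 11 were lower and 4 higher in the bulb than in the cortex (median -0.29), with 8 called lower and 0 higher. Of all tested genes 57.6% were lower there (median -0.08), with 29.1% called lower and 18% higher. Of brighter genes 68.8% were lower (median -0.19), with 38.7% called lower. Against the hippocampus 10 markers were lower and 5 higher in the bulb, with 1 called lower and 2 higher. Of all genes 55.9% were lower, with 25.5% called lower and 18.8% higher. Between hippocampus and cortex 13 markers were lower and 2 higher in the hippocampus, with 0 called. Of all genes 56.8% were lower and 11.1% were called. Counts of these markers after quantile normalization are not given here. The part of these markers in the regional differences of the proteasome genes was not tested.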

How the data were processed

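Agilent Feature Extraction 10.7.3.1 made the deposited scanner files, which hold spot intensity on a linear scale (processed, mean and background signal), per the file headers. A table of log2 values made by the authors from these arrays equals the 75th-percentile-scaled values minus the median of the probe (largest residual 0.0233), has column medians of -0.0914, -0.0626, -0.0462, 0.0254, 0.0436 and 0.0349 in array order, and serves as an alternative.

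Outlier and control spots were left out, the processed signal was taken as log2 and the 75th percentile of each array subtracted. Probe coordinates are those of the files (mm9), and promoters come from RefSeq (GRCm38.p6). No test was run within a region. Region contrasts and the mean treatment difference came from limma 3.58.1 in R 4.3.3 (region and treatment as terms, genes well above background on all 6 arrays), with Benjamini-Hochberg adjustment over all 20979 genes; the procedure was tested on simulated data. The number of arrays limits the precision. The members, their roles and all gene lists were chosen with earlier results of these data known. Values on every array are given for the catalytic, immune and activator genes, the inhibitor and the chaperones, and for the 3 highest and 3 lowest genes per comparison, and of other lists up to 2 at each end. Alternatives were normexp background correction (offset 50), quantile normalization, the median of all probes, outlier spots kept, the deposited table, other filters on dim genes, leaving out each array, and differences within one treatment. A count among brighter genes for the region contrasts and a fit with slide row as a term were added after seeing the data.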

Additional observations from a re-analysis of the deposited data

How the results depend on the processing

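Leaving out 1 array, a term for the slide row and quantile normalization changed the counts of calls. Quantile normalization lowered the number of proteasome genes called between bulb and hippocampus from 17 to 7 and between bulb and cortex from 18 to 6, and took the median differences to -0.057 and 0.015. It also left 0 genes higher by 0.25 in the cortex after PAMAM. With the median of all probes, 1 gene was lower by 0.25 in the hippocampus, 1 in the cortex and 0 were called between hippocampus and cortex, and that last count was also 0 when genes well above background on at least 2 arrays were tested. The shares of all genes at these settings, and of those higher by 0.25 after quantile normalization, are not given here. These changed counts therefore cannot be read as particular to the proteasome genes. Among brighter genes 0 proteasome genes were lower by 0.25 in the cortex (4.81% of brighter genes). Leaving out 1 array gave 1 to 19 calls between bulb and hippocampus (1 without the bulb saline, the bulb PAMAM or the hippocampus PAMAM array, 2 without the hippocampus saline array), 1 to 14 between bulb and cortex (1 without the bulb PAMAM array, 5 without the bulb saline array) and 0 to 0 between hippocampus and cortex; a lone array is then assumed to vary like the others. With slide row as a term, added after seeing the data, the counts were 1, 0 and 0. Of the values of single genes, 1427 kept their side of the threshold, 243 calls ended, 8 appeared, 26 treatment differences moved by more than spot noise, and 2 calls turned direction: against the cortex, Psma1 (0.016) and Psmc2 (0.067) were above 0 after quantile normalization, without being called. No paired analysis was possible because each group holds 1 array, beyond the region and treatment terms of the fit. With 1 pooled array per group neither the treatment nor the region differences can be set against the spread between mice. The SE and adjusted p of a region contrast rest on how far region differences disagree between saline and PAMAM pools.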
